A study of Mus musculus with 4 samples.

Results

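The 36 genes described here encode the enzymes that break down fatty acids in mitochondria and peroxisomes, the carriers that bring fatty acids into these organelles, and the peroxins that build peroxisomes. They were taken by name, all 36 were found among the 17335 genes of the expression table, and all 36 passed the expression minimum of 0.1 FPKM in 1 library that left 15839 genes. FPKM, the fragments of a transcript scaled to its length and to the depth of the library, is a level per length, so levels of different genes can be set side by side. Sorted by role, 19 members are mitochondrial, 14 are peroxisomal (6 enzymes, 2 transporters and 6 peroxins), and 3 (Eci2, Crat and Acot1) were set apart because their proteins are found in more than 1 compartment or in the cytosol.

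Expression was measured by RNA-seq in gonadal white adipose tissue (gWAT) of female mice fed a high-fat diet (HFD) for 18 weeks. AD1KO mice carry a floxed Dnmt1 gene, which encodes the maintenance DNA methyltransferase, together with Cre recombinase under the adiponectin promoter, and the fl/fl littermates carry the floxed gene with intact Dnmt1. This Cre is active mainly in mature adipocytes, so the other cells of the tissue keep Dnmt1 in AD1KO as well, and the age of the mice is not given in the sources used here. RNA of 4 animals was pooled in each group, which gives 1 library per group: no difference below has a replicate check, and no p-value is given.

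Beta-oxidation shortens an acyl-CoA by repeated rounds of dehydrogenation, hydration, a second dehydrogenation and thiolytic cleavage. Long chains reach the mitochondrial matrix as acylcarnitines, and the electrons pass through flavoproteins to the respiratory chain. Peroxisomes take up very-long and branched chains through ABC transporters and shorten them, while peroxins import the enzymes and make the organelle divide. In white adipocytes, which store rather than burn most of their fatty acids, many of these genes are known targets of the PPAR family of nuclear receptors, which bind DNA with RXR.

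Dnmt1 itself stood at 6.99 FPKM in fl/fl and 3.33 FPKM in AD1KO, a log2 ratio of −1.07 (95% counting interval −1.27 to −0.87). From the steps between low FPKM values, the depth was estimated at 17695000 reads in fl/fl and 17500000 reads in AD1KO. The median member had 4056 estimated reads over both libraries against 573 for the median tested gene, and the fewest, 67, belonged to Acot1. Intervals given with a log2 ratio are exact Clopper-Pearson intervals at 95% and cover counting error only.

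Most of the 36 genes had a somewhat higher level in AD1KO. Ratios, taken as log2 of the AD1KO level over the fl/fl level, were above 0 for 33 of them (91.7%, against 45.3% of all tested genes), and the median was 0.37, against −0.04 over all tested genes. Past a log2 ratio of 0.5, 8 members were higher in AD1KO (22.2%, against 14.3% of all tested genes) and 0 were lower (against 19.1%). The 8 were Ehhadh, Acaa1b, Pex11a, Acads, Cpt2, Decr1, Abcd2 and Hadh. The other 28 passed the threshold in neither direction, and 25 of them lay between 0 and 0.5. In bulk tissue, fewer cells of a type and less RNA per cell cannot be told apart, and adipocyte markers were higher in the same library (described with the other cell type markers at the end).

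Counting error was small for most members. The whole interval lay above 0 for 31 of 36 (86.1%), against 21.6% of all tested genes, and below 0 for 1, Cpt1a, against 29%. It held 0 for Cpt1b, Acot2, Acox3 and Acot1. For Ehhadh, Acaa1b, Pex11a, Acads and Cpt2 the whole interval lay above 0.5 (13.9% of members, against 4.19% of all tested genes). Depth narrows an interval, and the members are highly expressed. Among the 6161 genes with at least 10 FPKM in 1 library, a class that holds 33 of the members and all 8 that were higher, 8.54% were higher and 31.3% had the whole interval above 0, with a median log2 ratio of −0.05.

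**Figure D1:**
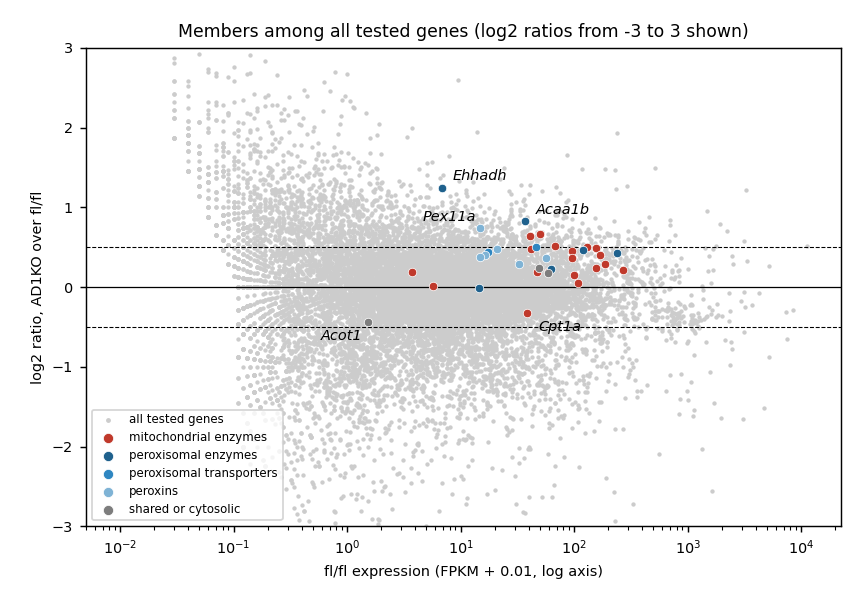
Each grey point is a tested gene, with its fl/fl level on the horizontal log axis (FPKM + 0.01) and its log2 ratio (AD1KO over fl/fl) on the vertical axis; the 36 members are coloured by compartment, dashed lines mark −0.5 and 0.5, and 463 genes outside −3 to 3 are not drawn. Members cluster to the right and between 0 and 0.5, with Ehhadh at 1.25 as the highest and Acot1 at −0.44 as the lowest.

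Levels spanned a wide range. Etfb, a subunit of the electron transfer flavoprotein, had the highest level of the 36 in fl/fl at 270.43 FPKM, followed by Scp2 at 238.65 FPKM and Hadhb at 188.29 FPKM. In fl/fl, 9 members stood at 100 FPKM or more, and 4 (Ehhadh, Acot2, Cpt1b and Acot1) were under 10 FPKM. The summed level of the 36 was 2631.1 FPKM in fl/fl and 3367.66 FPKM in AD1KO.

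**Figure D2:**
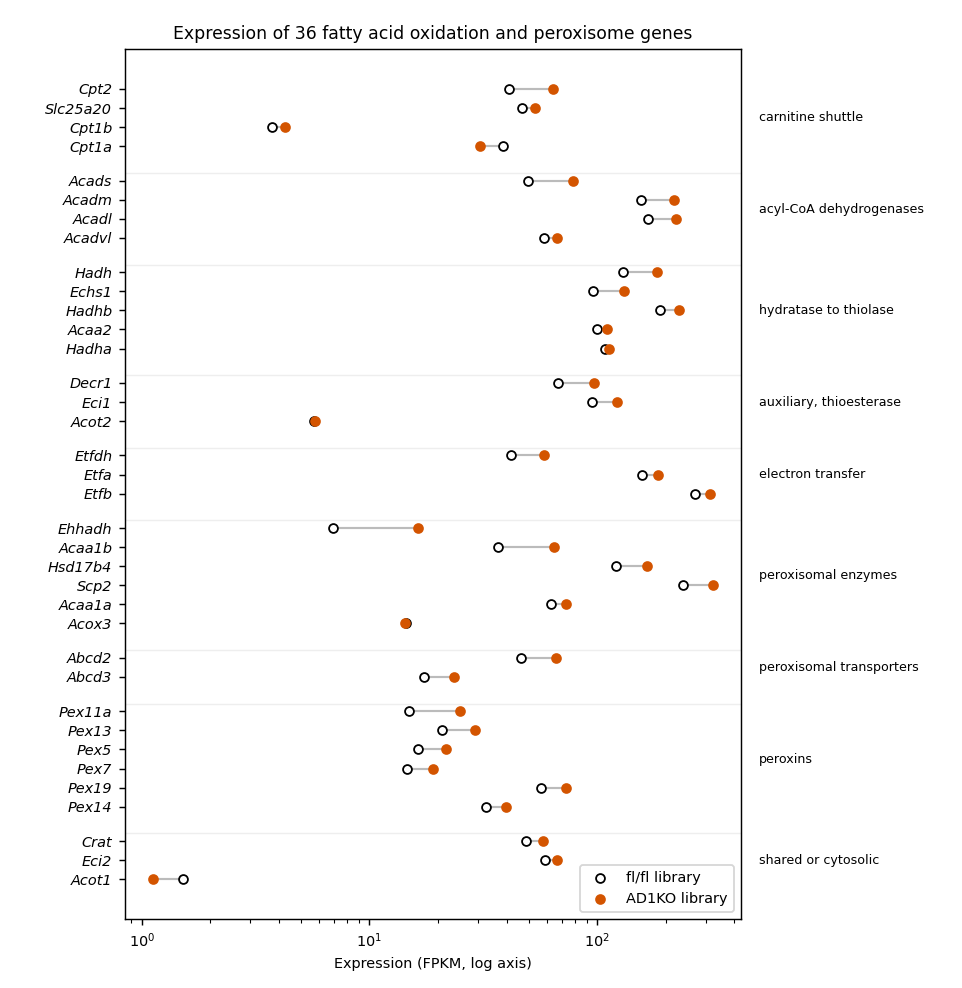
Level of each of the 36 genes in the fl/fl and the AD1KO library (FPKM, log axis), grouped by role, with 1 point per library and no error bar since each group is 1 pooled library. Levels run from 1.12 FPKM for Acot1 in AD1KO to 322.08 FPKM for Scp2 in AD1KO, and the distance between the paired points is widest for Ehhadh.

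The carnitine shuttle, the entry of long chains into mitochondria, was mixed. Cpt1a, the outer-membrane carnitine palmitoyltransferase and the step that sets the rate of entry, read 38.61 FPKM in fl/fl and 30.72 FPKM in AD1KO, a log2 ratio of −0.33 (−0.41 to −0.25). It was the single member whose whole counting interval lay below 0, although it did not reach −0.5. Cpt1b, the muscle-type form of the same enzyme, was scarce at 3.74 FPKM in fl/fl and 4.27 FPKM in AD1KO, with an interval that held 0 (−0.10 to 0.49). The translocase Slc25a20, which exchanges acylcarnitine for carnitine across the inner membrane, read 46.81 and 53.53 FPKM in fl/fl and AD1KO (log2 ratio 0.19). Cpt2, which turns acylcarnitine back into acyl-CoA in the matrix, was higher in AD1KO, at 63.83 FPKM against 40.84 FPKM in fl/fl, with a log2 ratio of 0.64 (0.55 to 0.74). The inner-side transferase and the outer-side transferase thus lay on opposite sides of 0, with intervals that did not overlap.

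Both forms of Cpt1 together summed to 42.35 FPKM in fl/fl and 34.99 FPKM in AD1KO, and the log2 ratio of their summed reads was −0.29 (−0.37 to −0.22). Cpt1b made up 8.83% of that sum in fl/fl and 12.2% in AD1KO, so Cpt1a carried most of it in each library. The 250 bases before the RefSeq start of Cpt1a on the plus strand, GRCm38.p6 chr19:3323051-3323300, are shown because this gene went against the other shuttle genes. Capitals mark AGGTCA (the element that PPAR and RXR recognise as a pair), CCAAT and GGGCGG on either strand, here 1, 1 and 2 matches.
Cpt1a: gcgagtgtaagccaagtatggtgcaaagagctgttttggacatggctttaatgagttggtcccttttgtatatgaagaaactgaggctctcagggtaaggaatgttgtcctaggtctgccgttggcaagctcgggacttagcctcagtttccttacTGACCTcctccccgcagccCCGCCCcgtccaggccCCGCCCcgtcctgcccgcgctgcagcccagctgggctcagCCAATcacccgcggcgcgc

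The acyl-CoA dehydrogenases, which open each round of oxidation in mitochondria, are named for the chain length they prefer. Acadvl, for very long chains, read 58.47 FPKM in fl/fl and 66.79 FPKM in AD1KO, a log2 ratio of 0.19 (0.11 to 0.28). Acadl, for long chains, read 167.58 and 221.49 FPKM, a log2 ratio of 0.40 (0.35 to 0.45). Acadm, for medium chains and deficient in the commonest human disorder of this pathway, read 155.95 and 218.62 FPKM, a log2 ratio of 0.49 (0.44 to 0.54). Acads, for short chains, was higher in AD1KO, at 78.61 FPKM against 49.61 FPKM in fl/fl, with a log2 ratio of 0.66 (0.57 to 0.76). Among these 4 enzymes the log2 ratio ran upward from the very-long-chain to the short-chain one, in steps of 0.21, 0.08 and 0.18. Only the middle step, from Acadl to Acadm, lay between overlapping counting intervals. Of the stretches of 50 bases in Acadvl transcripts, 23.5% are also found in transcripts of another gene, the overlapping neighbour Dvl2, so the value of Acadvl is uncertain.

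Among the enzymes of the later steps, Hadh, the short-chain hydroxyacyl-CoA dehydrogenase, was higher in AD1KO at 184.16 FPKM against 130.08 FPKM, with a log2 ratio of 0.50 (0.44 to 0.56) that only just passed the threshold. Echs1, the short-chain enoyl-CoA hydratase, read 95.59 FPKM in fl/fl and 130.95 FPKM in AD1KO (0.45, interval 0.38 to 0.53). The thiolase Acaa2, which releases acetyl-CoA, read 99.42 and 110.14 FPKM (0.15, interval 0.07 to 0.23). Its value lay well below those of Hadh and Echs1, although the 3 enzymes act in the same round.

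Hadha and Hadhb encode the alpha and beta subunits of the mitochondrial trifunctional protein, which handles hydration, dehydrogenation and thiolysis of long chains. They lie head to head on mm9 chromosome 5, Hadha on the minus strand (chr5:30444841-30481702) and Hadhb on the plus strand (chr5:30481788-30511133). Hadha read 108.41 FPKM in fl/fl and 112.51 FPKM in AD1KO, a log2 ratio of 0.05 (0.01 to 0.10). Hadhb read 188.29 and 229.88 FPKM, a log2 ratio of 0.29 (0.24 to 0.34). The counting intervals of the subunits did not overlap, and the level of Hadhb was 1.74 times that of Hadha in fl/fl and 2.04 times in AD1KO. The 85 bases between their starts, mm9 chr5:30481703-30481787 read on the plus strand, are shown because both genes start from them. They have a GC content of 69.4% and hold GGGCGG, in capitals, 2 times.
Hadha/Hadhb: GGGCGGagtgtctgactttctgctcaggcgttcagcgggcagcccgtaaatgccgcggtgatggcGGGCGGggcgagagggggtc

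Decr1, the reductase needed for unsaturated chains, was higher in AD1KO at 96.92 FPKM against 67.55 FPKM in fl/fl, a log2 ratio of 0.52 (0.46 to 0.58). Eci1, the mitochondrial isomerase that shifts double bonds, read 95.26 FPKM in fl/fl and 122.46 FPKM in AD1KO (0.36, interval 0.27 to 0.46). Acot2, a mitochondrial thioesterase that frees fatty acid from CoA, had nearly equal levels at 5.73 and 5.76 FPKM.

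Electrons from the dehydrogenases go to the electron transfer flavoprotein and on to its ubiquinone oxidoreductase. Etfa, the alpha subunit, read 157.26 FPKM in fl/fl and 185.94 FPKM in AD1KO (log2 ratio 0.24), and Etfb, the beta subunit, read 270.43 and 312.50 FPKM (0.21). The ratio of Etfb to Etfa was 1.72 in fl/fl and 1.68 in AD1KO, and the intervals of the log2 ratios overlapped, unlike those of the trifunctional protein's subunits. Etfdh, the oxidoreductase, read 41.82 and 58.28 FPKM, a log2 ratio of 0.48 (0.39 to 0.57), which lay above both subunits.

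**Figure D3:**
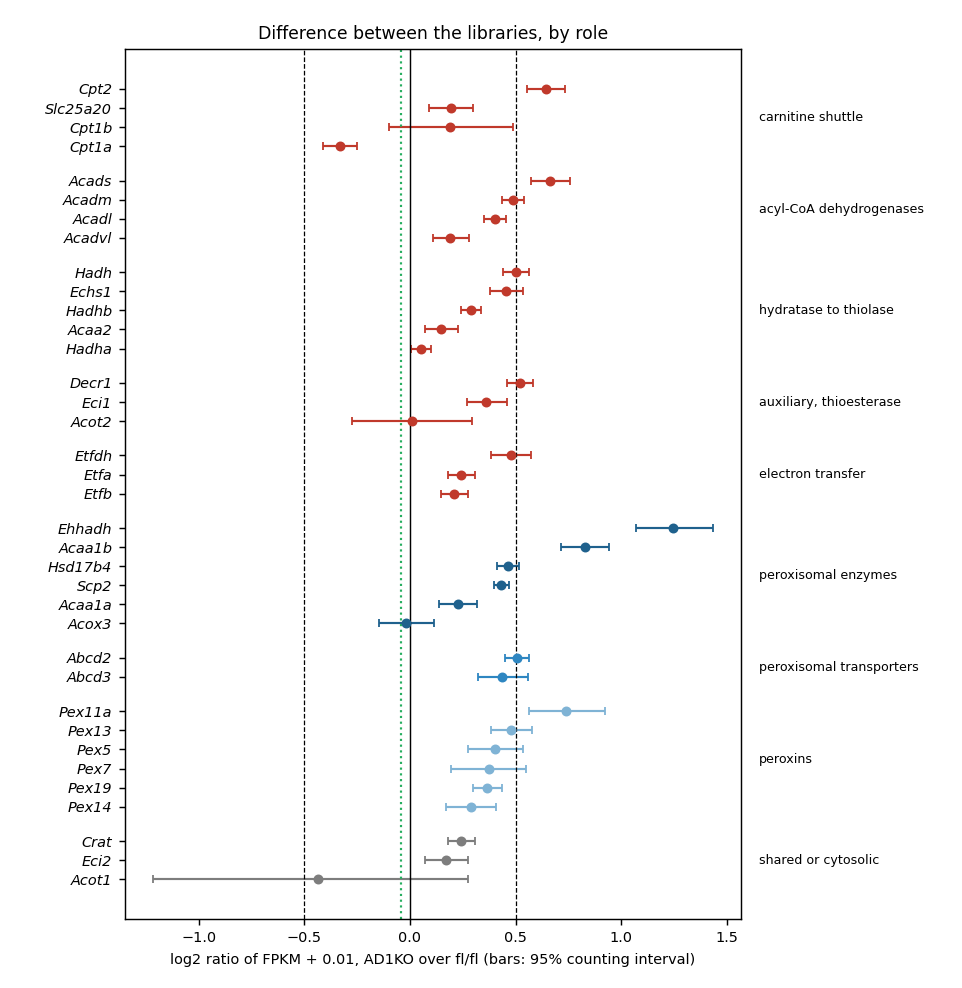
log2 ratio (AD1KO level over fl/fl level) for each of the 36 genes (FPKM + 0.01), grouped by role, with bars for the 95% counting interval, no replicate error, dashed lines at −0.5 and 0.5 and a green dotted line at the median of all tested genes (−0.04). In the dehydrogenase group the points run from 0.19 (Acadvl) to 0.66 (Acads), Cpt1a lies at −0.33, and Ehhadh at 1.25 lies farthest from 0.

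The peroxisomal enzymes held the largest difference of all members. Ehhadh, the peroxisomal bifunctional enzyme that hydrates and dehydrogenates enoyl-CoAs and a classic PPAR alpha target (mm9 chr16:21761360-21787917, minus strand), stood at 6.88 FPKM in fl/fl and 16.35 FPKM in AD1KO. That is 2.37-fold higher, with a log2 ratio of 1.25 (1.07 to 1.43), from about 352 and 828 reads. Its ratio was at percentile 96.1 of all tested genes. Hsd17b4, the other bifunctional enzyme, which also takes branched chains, was far more abundant at 120.73 FPKM in fl/fl and 166.45 FPKM in AD1KO (0.46, interval 0.41 to 0.51). Ehhadh made up 5.39% of the summed level of these enzymes in fl/fl and 8.94% in AD1KO, and their intervals did not overlap.

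The peroxisomal thiolases Acaa1a and Acaa1b, which close the round, also came apart. Acaa1b was higher in AD1KO at 64.83 FPKM against 36.54 FPKM in fl/fl, a log2 ratio of 0.83 (0.72 to 0.94). Acaa1a read 62.71 FPKM in fl/fl and 73.33 FPKM in AD1KO, a log2 ratio of 0.23 (0.14 to 0.32). Acaa1b was 36.8% of the summed thiolase level in fl/fl and 46.9% in AD1KO, and the log2 ratio of their summed reads was 0.47 (0.40 to 0.54). These are near-identical copies on mm9 chromosome 9 (chr9:119250412-119259413 for Acaa1a and chr9:119057141-119066211 for Acaa1b), and 32.0% of 50-base stretches in Acaa1a also occur in Acaa1b and 35.5% of those in Acaa1b also occur in Acaa1a. How reads were split between them is not given in the sources used here, and the values of each copy are uncertain.

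Acox3, an acyl-CoA oxidase for branched chains, read 14.47 FPKM in fl/fl and 14.29 FPKM in AD1KO, a log2 ratio of −0.02 (−0.15 to 0.11) whose sign turned under each of the 3 other library scalings tried. Scp2, whose products include a thiolase and a sterol carrier, had the highest level of the peroxisomal enzymes at 238.65 FPKM in fl/fl and 322.08 FPKM in AD1KO (0.43, interval 0.40 to 0.47).

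The 250 bases before the RefSeq starts of Ehhadh and both thiolases follow, because Ehhadh and Acaa1b had the highest ratios of the 36 and Acaa1a is the copy with the lower one. The marks are those used for Cpt1a. The windows are GRCm38.p6 chr16:21787835-21788084 on the minus strand, chr9:119157094-119157343 on the minus strand and chr9:119341044-119341293 on the plus strand. CCAAT occurs 1, 2 and 3 times, GGGCGG occurs 2, 0 and 3 times, and AGGTCA occurs in none of them.
Ehhadh: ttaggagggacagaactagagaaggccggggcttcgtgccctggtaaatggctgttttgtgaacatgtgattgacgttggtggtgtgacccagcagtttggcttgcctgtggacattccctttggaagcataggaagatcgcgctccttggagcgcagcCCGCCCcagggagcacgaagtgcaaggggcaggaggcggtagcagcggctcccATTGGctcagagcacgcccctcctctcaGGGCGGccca
Acaa1b: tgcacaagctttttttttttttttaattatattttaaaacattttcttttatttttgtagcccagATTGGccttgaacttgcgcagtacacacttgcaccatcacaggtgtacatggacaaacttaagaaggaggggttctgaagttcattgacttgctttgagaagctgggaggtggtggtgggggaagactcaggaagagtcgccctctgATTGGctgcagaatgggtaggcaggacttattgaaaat
Acaa1a: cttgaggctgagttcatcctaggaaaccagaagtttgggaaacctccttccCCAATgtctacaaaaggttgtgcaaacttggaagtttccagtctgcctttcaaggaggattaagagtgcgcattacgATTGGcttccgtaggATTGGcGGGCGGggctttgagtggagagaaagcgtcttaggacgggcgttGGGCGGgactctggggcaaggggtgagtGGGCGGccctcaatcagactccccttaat

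RefSeq promoter windows, from 250 bases before to 50 after a start, were found for 29 of the 36 members. AGGTCA, searched on both strands, was present in 5 of the 29 (17.2%), against 18.1% of all 27025 windows and 15.7% of those of tested genes. A pair of exact AGGTCA elements in the same direction 1 base apart, the arrangement that PPAR and RXR bind, was in 0 of the 29 and in 0.0481% of all windows. So rare an exact match cannot tell whether the members differ from other genes. TCAAGGTCA, which contains AGGTCA, was in 0 of the 29 against 0.466%, and TGACGTCA was in 1 (Pex13) against 2.03%. CCAAT was in 13 (44.8%, against 42.4% for tested genes), and GGGCGG in 23 (79.3%, against 64.1% for tested genes and 69.7% for those with at least 10 FPKM). Each match describes letters in a window only. Besides that of Cpt1a, the AGGTCA matches were in the genes below, shown with up to 12 bases on each side. All 4 genes are on the minus strand and the stretches are read on it, so that the match in Acadm, which reads TGACCT there, is on the plus strand. The stretches lie at chr3:153944875-153944893, chr11:70015498-70015527, chr7:140116487-140116516 and chr4:108118639-108118668 of GRCm38.p6, 249, 87, 83 and 109 bases before the start.
Acadm: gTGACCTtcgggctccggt
Acadvl: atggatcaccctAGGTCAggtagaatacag
Echs1: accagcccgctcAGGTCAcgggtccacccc
Scp2: gtctaacacagtAGGTCAaaagaacccata

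The ABC transporters that carry acyl-CoA into peroxisomes had similar ratios, with a median of 0.47. Abcd2, which takes very-long unsaturated chains, was higher in AD1KO at 66.04 FPKM against 46.48 FPKM in fl/fl, a log2 ratio of 0.51 (0.45 to 0.56). Abcd3, which takes branched and dicarboxylic acids, read 17.33 FPKM in fl/fl and 23.48 FPKM in AD1KO (0.44, interval 0.32 to 0.56). Their intervals overlapped, and Abcd3 made up 27.2% and 26.2% of the summed level in fl/fl and AD1KO.

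All 6 peroxins had a log2 ratio above 0 with the whole counting interval above 0, and their median was 0.39. Pex11a, which elongates peroxisomes before they divide, was higher in AD1KO at 24.86 FPKM against 14.89 FPKM in fl/fl, a log2 ratio of 0.74 (0.56 to 0.92). The import receptors Pex5 and Pex7 read 16.37 and 14.67 FPKM in fl/fl and 21.66 and 19.00 FPKM in AD1KO, with log2 ratios of 0.40 and 0.37. Pex13 and Pex14 form the docking site for these receptors. Pex13 read 20.92 FPKM in fl/fl and 29.20 FPKM in AD1KO (0.48), and Pex14 read 32.53 and 39.74 FPKM (0.29). Pex19, the chaperone for membrane proteins of the peroxisome, read 56.94 and 73.36 FPKM (0.37). The interval of Pex11a lay above those of the other peroxins except Pex13, with which it overlapped by a small margin.

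The 3 genes set apart had a median log2 ratio of 0.17, with none past the threshold. Eci2, an isomerase found in both organelles, read 59.31 FPKM in fl/fl and 66.82 FPKM in AD1KO (0.17, interval 0.07 to 0.28). Crat, which joins short acyl groups to carnitine in both organelles, read 48.71 and 57.69 FPKM (0.24, interval 0.18 to 0.31). Acot1, the cytosolic thioesterase, had the lowest ratio of the 36, −0.44, at 1.52 FPKM in fl/fl and 1.12 FPKM in AD1KO. With about 39 and 28 reads its interval ran from −1.22 to 0.28, and at this depth no difference could be detected. Acot1 and Acot2 share sequence, with 34.8% of 50-base stretches of Acot1 also in Acot2 and 24.5% of those of Acot2 also in Acot1, and Acot1 shares further stretches with other Acot genes. Their summed reads gave a log2 ratio of −0.05 (−0.32 to 0.21).

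Mitochondrial and peroxisomal enzymes were compared next. Of the 19 mitochondrial members, 4 (21.1%) were higher and 0 lower, 16 had the whole interval above 0, and the median log2 ratio was 0.29, from −0.33 for Cpt1a to 0.66 for Acads. Of the 6 peroxisomal enzymes, 2 were higher and 0 lower, and the median was 0.45, from −0.02 for Acox3 to 1.25 for Ehhadh. With transporters and peroxins, 4 of the 14 peroxisomal members were higher (28.6%), 13 had the whole interval above 0, and the median was 0.44. Over all tested genes, 14.3% were higher, 19.1% were lower and 21.6% had the whole interval above 0. Among those with at least 10 FPKM in 1 library, 8.54% were higher and 31.3% had the whole interval above 0. The medians of the enzymes differed by −0.16 (mitochondrial minus peroxisomal), but the ranges overlapped widely, with 12 mitochondrial enzymes below and 7 above the peroxisomal median. The summed level of the mitochondrial members was 1821.45 FPKM in fl/fl and 2287.36 FPKM in AD1KO, and that of the peroxisomal enzymes was 479.98 and 657.33 FPKM. No test of this difference is possible with 1 library per group, and it depended on the grouping. It was −0.05 with Eci2 and Crat counted as peroxisomal, and −0.21 with Eci2, Crat and Acot1 counted as mitochondrial. Outside the members the order of the medians was reversed. The median was 0.42 for 19 other mitochondrial oxidation genes and 0.36 for 30 other genes listed as peroxisomal enzymes.

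The rest of the pathway, 68 further oxidation and peroxisome genes, had a median log2 ratio of 0.32, with 17 higher and 5 lower in AD1KO. Over all tested genes, 14.3% were higher and 19.1% lower, which is the background for the lists that follow. Of 19 other mitochondrial oxidation genes, 4 were higher, 1 was lower and the median was 0.42. Acad11 (23.88 FPKM in fl/fl, 38.78 in AD1KO, log2 ratio 0.70) and Acad9 (13.93 and 21.22 FPKM, 0.61) are further acyl-CoA dehydrogenases for long chains, and with ratios above those of Acadvl and Acadl they do not follow the order by chain length seen in the 4 members. Dbi, the acyl-CoA binding protein, was higher at 4651.76 FPKM against 3130.8 FPKM (0.57). Named after their values were seen, Slc25a29 was higher at 1.02 FPKM against 0.67 FPKM (0.60, interval −0.22 to 1.45), and Acss1, a mitochondrial acetyl-CoA synthetase, was lower at 2.97 FPKM against 4.83 FPKM (−0.70).

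Of 30 other genes listed as peroxisomal enzymes, 10 were higher and 3 lower, with a median of 0.36. The largest rises at 5 FPKM or more were those of the glutathione transferase Gstk1 (45.86 FPKM in fl/fl, 69.83 in AD1KO, log2 ratio 0.61), Hacl1, which cleaves hydroxyacyl-CoAs in alpha-oxidation (11.57 and 17.3 FPKM, 0.58), and Gnpat, the first enzyme of ether lipid synthesis (62.23 and 93.01 FPKM, 0.58). The 3 lower ones, the thioesterases Acot5, Acot6 and Acot12, named after their values were seen, were all at or under 0.7 FPKM in both libraries. Acot12 is a cytosolic enzyme but was counted in this list. Agps and Far1, which like Gnpat serve ether lipid synthesis, were named after their values were seen. Agps read 5.62 FPKM in fl/fl and 4.6 FPKM in AD1KO (−0.29), and Far1 read 8.07 and 6.45 FPKM (−0.32). Both whole counting intervals lay below 0, and neither gene passed the threshold. Among 8 other peroxisomal membrane proteins, Pxmp2 was higher (14.27 and 25.79 FPKM, 0.85), and the median was 0.32. Of 11 other genes with a Pex symbol, 2 were higher, with a median of 0.26. These were Pex16 (68.54 and 98 FPKM, 0.52) and the Pex5-like gene Pex5l, chosen after its values were seen (1.49 and 2.42 FPKM, 0.70).

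Regulators of these genes were mixed. Of 16, 4 were higher and 0 lower (14.3% and 19.1% of all tested genes), and the median was 0.05. Ppara, the PPAR most tied to fatty acid oxidation, was higher in AD1KO but scarce, at 1.00 FPKM against 0.56 FPKM in fl/fl (log2 ratio 0.83, interval 0.41 to 1.28). Rxrg, an RXR form that partners PPARs, was higher at 13.68 FPKM against 8.45 FPKM (0.69). Lpin1, a phosphatidate phosphatase that also acts with PPAR alpha in the nucleus, was higher at 45.35 FPKM against 28.49 FPKM (0.67), and Prkaa2, an AMPK catalytic subunit, at 1.06 FPKM against 0.71 FPKM (0.57). Pparg, the adipocyte PPAR, had the highest level of the 16, 84.94 FPKM in fl/fl and 109.93 FPKM in AD1KO (0.37, interval 0.30 to 0.45).

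The remaining regulators passed the threshold in neither direction. Among them Sirt3, the mitochondrial deacetylase, had a log2 ratio of 0.42, Rxra 0.30, Prkaa1 0.12, Ppard −0.01, Tfam −0.04, Nrf1 −0.05, Sirt1 −0.15, Esrra −0.20 and Rxrb −0.32. The coactivators were at the low end, Ppargc1a at 0.22 FPKM in fl/fl and 0.19 FPKM in AD1KO (−0.20, interval −1.15 to 0.66) and Ppargc1b at 1.23 and 0.90 FPKM (−0.45). Neither coactivator was among the 4 higher regulators.

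Of 13 further PPAR targets, 5 were higher and 1 lower (14.3% and 19.1% of all tested genes), with a median of 0.35. Their summed level was lower in AD1KO, at 1883.95 FPKM against 2338.45 FPKM in fl/fl. The whole counting interval lay above 0 for 7 of them and below 0 for 2, Ucp2 and Plin2. Plin2, named after its values were seen, read 839.41 FPKM in fl/fl and 619.27 FPKM in AD1KO (−0.44, interval −0.47 to −0.41). Plin5, a lipid droplet protein that touches mitochondria, was higher at 12.31 FPKM against 7.88 FPKM (log2 ratio 0.64), and the carrier Ucp3 at 8.95 FPKM against 5.76 FPKM (0.63). Ucp2, a carrier that macrophages also express strongly, was lower at 625.13 FPKM against 998.13 FPKM (−0.68). Cyp4a14, Fabp3 and Cyp4a10, named after their values were seen, were the other higher ones and did not exceed 2.24 FPKM. None of 5 ketone body genes passed the threshold, with a median of 0.30.

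The 91 nuclear genes of the respiratory chain, which takes the electrons from beta-oxidation, had a median log2 ratio of 0.09, with 1 higher and 2 lower. The lower ones were Ndufs5 (29.96 and 5.8 FPKM, −2.37) and Atp5g2 (311.51 and 212.11 FPKM, −0.55). The higher one, Cox7b2, named after its values were seen, was listed at 0 in fl/fl and at 0.13 FPKM in AD1KO. Of the 36 members, 31 lay above the respiratory chain median.

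**Figure D4:**
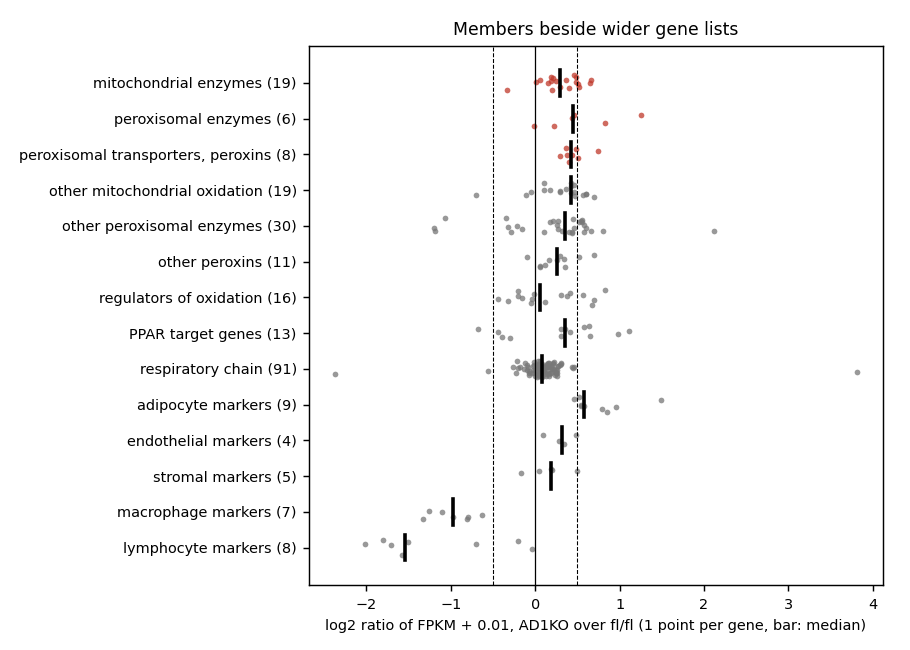
log2 ratio (AD1KO level over fl/fl level, FPKM + 0.01) for each gene of the member groups and of the wider gene lists, with 1 point per gene, a bar at the list median, the number of genes in parentheses and dashed lines at −0.5 and 0.5; the outlying respiratory chain points are Ndufs5 (left) and Cox7b2 (right, listed at 0 in fl/fl). The median of the adipocyte markers (0.58) lies to the right of the member medians, though their points overlap. All macrophage markers (median −0.98) lie to the left of the members, and the respiratory chain median is 0.09.

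Markers of cell types also differed between the libraries. The 9 adipocyte markers had a median log2 ratio of 0.58, 8 were higher and 0 lower, and their log2 ratios ran from 0.46 to 1.50, with the secreted proteins Cfd (1.50) and Retn (0.84) and the lipid droplet protein Cidec (0.96) as the 3 highest. Their summed level was 17655.7 FPKM in fl/fl and 27551.1 FPKM in AD1KO. Of the members, 12 exceeded the lowest adipocyte marker and 5 exceeded the median marker. All 7 macrophage markers were lower, with a median of −0.98 and a summed level of 3426.68 FPKM in fl/fl and 1706.56 FPKM in AD1KO, and Itgax (−1.32), Adgre1 (−1.26) and Cd68 (−1.11) were the lowest. Of 8 lymphocyte markers, 6 were lower and 0 higher (median −1.54), and their summed level was 119.86 and 57.25 FPKM, with Nkg7 (−2.02), Cd3d (−1.80) and Cd3e (−1.58) the lowest of those at 5 FPKM or more. The 5 stromal and 4 endothelial markers passed the threshold in neither direction, with medians of 0.18 and 0.31.

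Ucp1, the uncoupling protein that defines brown fat, was lower in AD1KO at 1.38 FPKM against 8.39 FPKM (log2 ratio −2.60), and Cidea was lower at 3.38 FPKM against 5.88 FPKM (−0.80). Over 7 brown fat markers, 2 were higher and 2 lower, with a median of 0.12. Elovl3 and Dio2, named after their values were seen, were the higher ones and stood at 1.23 FPKM or less. Of 4 skeletal muscle markers that passed the expression minimum, 1 was higher (Ckm) and 2 were lower (Mylpf and Tnnt3), all 3 named after their values were seen and at 1.27 FPKM or less, and the median was −0.39. The part of the adipocyte and leukocyte markers in the members' ratios was not tested.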

How the data were processed

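RNA of 4 HFD-fed female mice per group was pooled by the authors and its oligo(dT)-selected mRNA sequenced on a BGISEQ-500. Clean reads were aligned to mm9; the aligner and the program that quantified expression are not given in the sources used here. The authors deposited FPKM for both libraries in 1 table, with 0 written as 0.01. Its fold change, P-value and FDR columns hold the authors' own comparison and were not used. RRBS libraries, also part of the series, were not analysed here.

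Values of 0.01 were set back to 0, and log2 ratios were computed after adding 0.01 FPKM, which understates differences of low genes. Genes reaching 0.1 FPKM in either library were kept and called at a log2 ratio of 0.5, the cutoff of the study. Depth was estimated from the steps of low FPKM values of short genes: 80.5% of 441 genes in fl/fl and 79.7% of 444 in AD1KO came within 0.2 of a whole read, and the length corrections were 118 and 117 bases. Reads per gene, from which the exact intervals follow, are therefore estimates, and intervals cover counting error only. Samples were grouped by their labels. With 1 library per group, no test between conditions was run.

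The members and lists were chosen with earlier results of these data known. Named genes were the 36 members, Dnmt1, 16 regulators and, of each other list, at most 3 rises and 3 falls past 0.5 with at least 5 FPKM in 1 library. Gene positions are those of GENCODE vM1 (mm9), and shared 50-base stretches were counted in its protein-coding transcripts on both strands. Promoter windows are from RefSeq (GRCm38.p6). Alternatives were other pseudocounts, filters, scalings, thresholds and groupings of members. The computations were tested on simulated data and run in Python 3.11.15 with NumPy 2.4.6, SciPy 1.17.1 and pandas 2.3.3.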

Additional observations from a re-analysis of the deposited data

How the results depend on the processing

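No paired analysis was possible because each group is 1 pool of animals sequenced once, and for the same reason no replicate could be left out. Of 14 alternatives, those that changed the count of higher members by over 1.5 times were scaling by the upper quartile (15 higher, with 17.6% of all tested genes higher), a log2 ratio threshold of 1 (1 higher, with 5.75%) and a whole counting interval past 0.5 (5 higher). Members lower stayed at 0 under all of them. The trimmed mean of M-values gave 12 higher members (with 15.8% of all tested genes higher) and the median of ratios gave 11 (with 15.5%). Each other scaling thus raised the count above the reported 8. The median of the peroxisomal enzymes moved to 0.49 under scaling by the trimmed mean of M-values, 0.54 under the upper quartile and 0.34 with Eci2 and Crat counted among them. These other scalings shift all genes by 0.04 to 0.09 on the log2 scale. The median of all members stayed between 0.36 and 0.46. Of 288 recomputed member values, 18 moved outside their counting interval, 17 of them under the upper quartile. Acox3 alone changed sign, to 0.03 under the trimmed mean of M-values, 0.07 under the upper quartile and 0.02 under the median of ratios. Depth limits Acot1, with 67 reads over both libraries, and the pooled libraries limit every member, since spread between animals cannot be seen.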
